A study of Mus musculus with 8 samples.

Results

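The 9 mouse genes of oxygen sensing followed here were the 4 subunits of the hypoxia-inducible factors (Hif1a, Epas1, Hif3a and Arnt), the 3 prolyl hydroxylases (Egln1, Egln2 and Egln3), the asparaginyl hydroxylase Hif1an, and Vhl. They were selected on measured values of these same arrays, among them the knockout minus wild type differences given here, so those differences are a description and carry no test. Their probes were found by gene symbol or by the gene of the probe's transcript accession, which gave 16 of the 55681 probes on the array, and 2 more probes were tied to Hif1a and Arnt by the array's description of an Ensembl transcript. All 9 genes had a probe that passed the filter on dim spots, among 24303 genes tested. To pass, a probe had to stand well above background on 3 or more of the 4 arrays of either genotype, which 17 of the 18 probes did.

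The tissue was the outflow tract of the mouse embryonic heart at E10.5. Both groups came from dams that ate food with all-trans-retinoic acid at 0.1 mg/g from E7.5 to E8.5, so the controls were rescued as well. One group was Raldh2-/- (the gene now called Aldh1a2, which encodes the main retinoic acid synthesising enzyme of the early embryo) and the other was wild type. Each group had 4 pools of 4 outflow tracts and each pool had 1 array, so p-values measure the spread between pools, which may be technical. Knockout pools are numbered 1, 2, 3 and 7 and wild type pools 1, 2, 5 and 7.

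Levels are log2 spot intensities relative to the 75th percentile of their own array, and a difference is always knockout minus wild type on that log2 scale. Wild type pool 1 stood apart. Its median spot intensity was 2020 against 40 to 83 on the other 7 arrays, 94.7% of its probes were well above background against 53.3% to 63.2%, and its median correlation with the other arrays was 0.759 against 0.978 to 0.989. The slope of its levels on the mean of the other 7 arrays was 0.43 against 0.96 to 1.03. Results are therefore given with all 8 pools and with the 7 pools other than wild type pool 1. All knockout arrays lay in 1 position row of the single slide and all wild type arrays in the other, so genotype cannot be told apart from slide row. The targeted gene Aldh1a2 read 2.02, 2.01, 1.87 and 0.059 in the knockout pools and 1.92, 3.21, 2.98 and 3.65 in the wild type pools, a difference of -1.45 ± 0.55 (SE, 4 against 4 pools) and of -1.79 ± 0.50 with 7 pools. Its groups overlapped through wild type pool 1 and did not overlap without it. Whether its probe lies in the deleted sequence is not given in the sources used here. All 10 cardiomyocyte markers looked at were well above background on all 8 arrays.

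In normal oxygen the prolyl hydroxylases modify the alpha subunits Hif1a and Epas1, the Vhl ubiquitin ligase then binds them, and they are degraded, while Hif1an hydroxylates an asparagine that keeps the coactivators Ep300 and Crebbp away. In low oxygen the alpha subunits escape, pair with Arnt and bind the hypoxia response element of their target genes. Egln1 and Egln3 are themselves known HIF targets, a negative feedback in which low oxygen raises the message of its own sensors, whereas Egln2, Hif1an and Vhl are regarded as constitutive. The midgestation outflow tract is known to be among the hypoxic parts of the embryonic heart. Control of Hif1a and Epas1 lies largely in protein stability, which an mRNA array does not measure.

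The letters upstream of the hydroxylase genes are shown because the grouping into HIF-controlled and constitutive sensors rests on their regulation. The hypoxia response element has the core ACGTG or GCGTG. It was searched on both strands in the 250 bases before each RefSeq transcription start (GRCm38.p6). Sequences run 5′ to 3′ on the gene's own strand, capitals mark a core or its reverse complement, and the start lies just after the last base.
Egln3, chr12:54203875-54204124, minus strand: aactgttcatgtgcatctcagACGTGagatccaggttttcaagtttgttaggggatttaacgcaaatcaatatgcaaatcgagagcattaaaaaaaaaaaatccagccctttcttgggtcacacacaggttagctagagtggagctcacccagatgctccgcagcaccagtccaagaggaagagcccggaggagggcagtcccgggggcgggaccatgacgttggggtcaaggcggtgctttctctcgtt
Egln1, chr8:124949255-124949504, minus strand: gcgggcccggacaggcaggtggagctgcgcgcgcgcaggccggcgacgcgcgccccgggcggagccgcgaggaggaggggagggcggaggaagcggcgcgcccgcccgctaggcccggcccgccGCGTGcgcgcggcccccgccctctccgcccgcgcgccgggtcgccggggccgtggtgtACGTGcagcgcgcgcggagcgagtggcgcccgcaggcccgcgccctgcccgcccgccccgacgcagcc
Egln2, chr7:27166803-27167052, minus strand: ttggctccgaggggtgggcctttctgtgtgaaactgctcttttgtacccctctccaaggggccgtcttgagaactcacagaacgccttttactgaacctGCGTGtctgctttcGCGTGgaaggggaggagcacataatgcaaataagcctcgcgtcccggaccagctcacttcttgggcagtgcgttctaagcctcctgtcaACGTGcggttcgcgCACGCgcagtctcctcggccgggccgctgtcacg
Hif1an, chr19:44562604-44562853, plus strand: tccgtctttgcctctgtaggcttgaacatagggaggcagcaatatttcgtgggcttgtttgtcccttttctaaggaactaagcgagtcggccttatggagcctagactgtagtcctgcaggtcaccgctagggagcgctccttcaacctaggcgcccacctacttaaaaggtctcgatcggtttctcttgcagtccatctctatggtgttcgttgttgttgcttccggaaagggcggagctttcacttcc
The Egln3 window held 1 core, an ACGTG 229 bases before the start. The Egln1 window held 2, an ACGTG at 68 and a GCGTG at 126 bases before the start, in a stretch of 86% G and C. The printed Egln2 window, of the upstream one of its 2 listed starts, held 4 cores and the window of its other start held 1. Neither Hif1an nor Vhl had a core in its window. Among the HIF subunits, Hif1a had 3 cores, of which 2 are the overlapping strands of 1 palindromic CACGTG, Hif3a had 2 and Arnt had 1, while Epas1 was not in the table used. Over all 32851 windows of the same length, 16.6% held ACGTG, 28.2% held GCGTG, 38.6% held either and 6.58% held 3 or more cores. Of the windows with at least 70% G and C, as Egln1's, 66.8% held either core. A constitutive hydroxylase, Egln2, thus had more matches than either HIF-controlled one. A match is a run of letters and not a measured binding site, and known elements can lie far from this window.

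Egln3 and Egln1, the hydroxylases under HIF control, were lower in every knockout pool than in every wild type pool. The constitutive Egln2, Hif1an and Vhl, by their brightest probes, differed by at most 0.07 in size once wild type pool 1 was left out. That bound holds for the levels as defined above. Under other settings without that pool, Egln2 reached -0.14, Hif1an -0.17 and Vhl -0.21. Egln3, with the wider difference, was 3.96 times as high in wild type as in knockout pools with 8 pools and 4.47 times with 7. For Egln1 these ratios were 1.83 and 1.91. Of the HIF subunits, Hif1a, Hif3a and Arnt overlapped between the groups and Epas1 was the only one of the 9 genes with every knockout pool above every wild type pool.

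**Figure D1:**
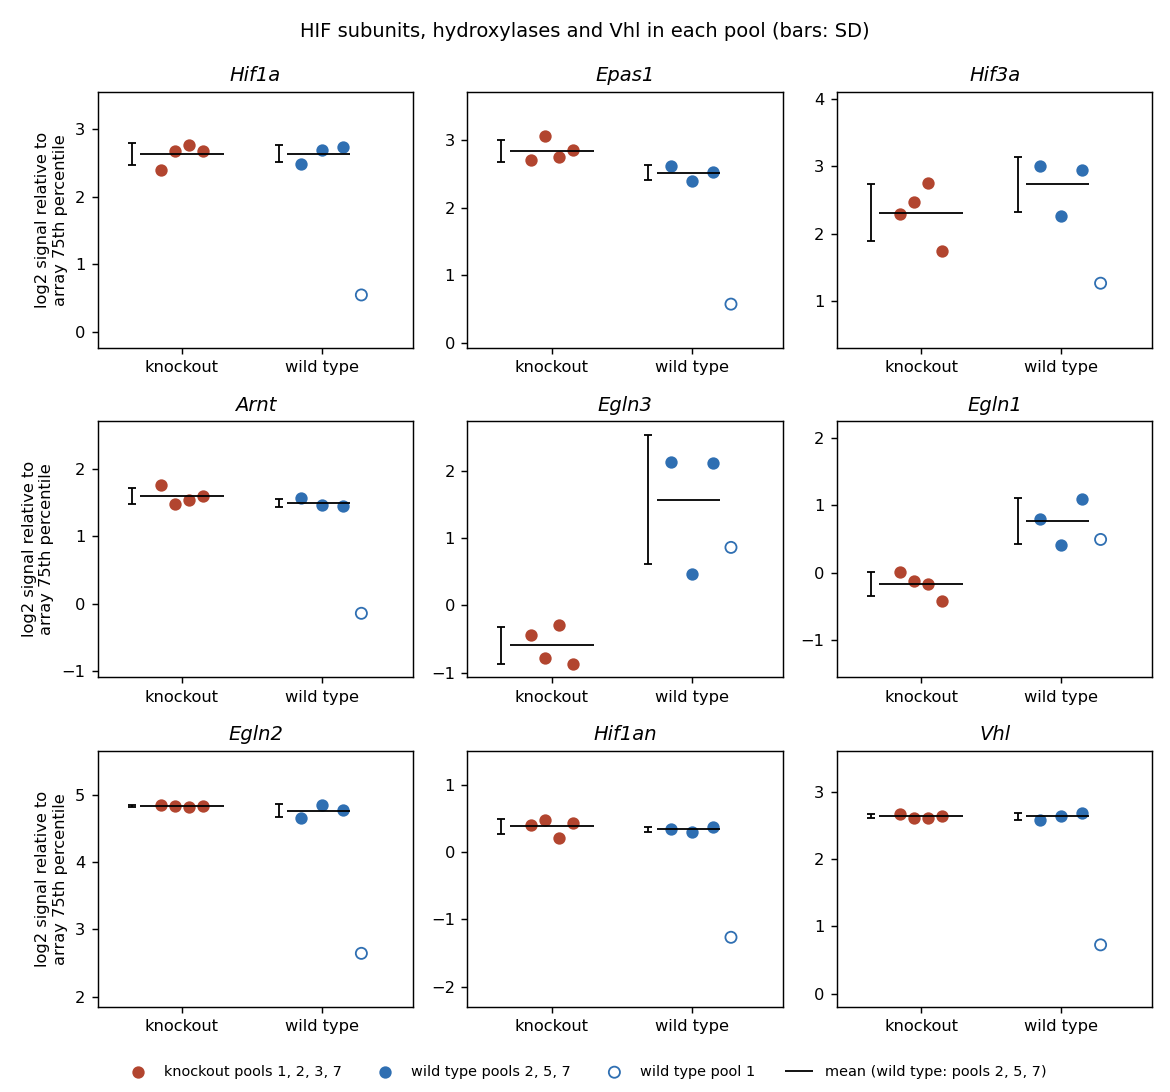
Level of each of the 9 genes in each pool (y axis, log2 spot intensity relative to the array's 75th percentile), by its brightest kept probe. Points are pools, open circles wild type pool 1, lines the group means and bars the SD, both over wild type pools 2, 5 and 7 in that group. Egln3 and Egln1 separate by genotype, and wild type pool 1 is the lowest point in 7 of the panels, all but those of Egln3 and Egln1.

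Egln3 (PHD3) is the prolyl hydroxylase best known for its steep induction by low oxygen. Its brighter probe lies at chr12:55280953-55281012 (mm9, minus strand). Its level was -0.43, -0.78, -0.29 and -0.86 in the knockout pools, in the order 1, 2, 3 and 7 used throughout, against 0.86, 2.13, 0.46 and 2.12 in the wild type pools, in the order 1, 2, 5 and 7. The groups did not overlap. Wild type pools 2 and 7 were high and nearly equal, and wild type pool 5 lay closer to the nearest knockout pool than to either of them. The difference was -1.98 ± 0.43 (SE, 4 against 4 pools) and -2.16 ± 0.42 with 7 pools. The second probe, at chr12:55281252-55281311 (mm9), gave the same picture. It read -1.08, -1.52, -1.17 and -1.51 in the knockout pools and 0.03, 1.47, -0.31 and 1.46 in the wild type pools, a difference of -1.98 ± 0.46 with 8 pools and -2.19 ± 0.43 with 7. In these bulk pools, fewer cells of a type and less RNA per cell cannot be told apart.

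Egln1 (PHD2), the main oxygen sensor in most tissues, had 1 probe, on chromosome 8, whose listed mm9 positions span only 13 bases and are not given further. It read 0.01, -0.12, -0.17 and -0.42 in the knockout pools and 0.49, 0.80, 0.41 and 1.09 in the wild type pools. The groups did not overlap, though the gap between knockout pool 1 and wild type pool 5 was small beside the whole range. The difference was -0.87 ± 0.27 (SE, 4 against 4 pools) and -0.94 ± 0.18 with 7 pools. Wild type pools 7 and 2 were again the highest and pool 5 the lowest of the wild type pools. With 1 probe, no second measurement of Egln1 bears on this.

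The constitutive sensors lay close together across the pools other than wild type pool 1. Egln2 (PHD1), at chr7:27943678-27943737 (mm9, minus strand), read 4.85, 4.83, 4.82 and 4.84 in the knockout pools and 2.64, 4.66, 4.85 and 4.78 in the wild type pools. Its difference was 0.60 ± 0.49 (SE, 4 against 4 pools) with 8 pools and 0.068 ± 0.089 with 7. The second Egln2 probe, at chr7:27944020-27944079, differed by 0.45 ± 0.35 and 0.12 ± 0.097. The knockout pools of the brighter probe had an SD of 0.013, so Egln2 hardly varied among knockout pools whose Egln3 level had an SD of 0.27.

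Hif1an (FIH), at chr19:44650157-44650216 (mm9, plus strand), read 0.40, 0.47, 0.22 and 0.43 in the knockout pools and -1.27, 0.34, 0.30 and 0.38 in the wild type pools. Its difference was 0.44 ± 0.40 (SE, 4 against 4 pools) with 8 pools and 0.039 ± 0.099 with 7. Vhl, the substrate receptor of the ligase, was measured at chr6:113581566-113581625 (mm9, plus strand). It read 2.67, 2.61, 2.61 and 2.64 in the knockout pools and 0.72, 2.58, 2.63 and 2.69 in the wild type pools, a difference of 0.48 ± 0.45 with 8 pools and -0.0018 ± 0.084 with 7. For all 3 genes the positive difference over 8 pools rested on the low value in wild type pool 1, and the other 3 wild type pools overlapped with the knockout pools.

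That low value appeared with the scaling. Before scaling, the Vhl spot intensity in wild type pool 1 was 6956, close to the 6911 of knockout pool 3, while the 75th percentile of that array was 4210 against 659 to 1130 on the others. Egln3 behaved otherwise: its unscaled intensity in wild type pool 1 was 7656, against 484 to 928 in the knockout pools and 1283 to 3951 in the other wild type pools. Egln1 likewise had its highest unscaled intensity there, 5919 against at most 1569 elsewhere. Probes dim on the other arrays were bright on this one: of 15184 probes not well above background on the other 7 arrays, 87.5% were well above it in wild type pool 1. The part of this in the Egln3 and Egln1 values of that pool was not tested, and both genes kept their separation without it.

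The contrast between the HIF-controlled pair and the constitutive 3 was taken inside each array. It was the mean of Egln1 and Egln3 minus the mean of Egln2, Hif1an and Vhl. Any constant added to an array leaves it unmoved, but a changed slope, such as the 0.43 of wild type pool 1, does not. Centred on its mean over the 7 pools, the contrast was -0.53, -0.77, -0.46 and -0.96 in the knockout pools. In the wild type pools it was 2.29, 1.26, 0.16 and 1.30. Wild type pool 1 had the highest contrast, and the part of its slope in the 8-pool values was not tested. The groups did not overlap. The knockout mean was -0.68 ± 0.23 (SD, n = 4) and the wild type mean 0.91 ± 0.65 (SD, n = 3) without pool 1, a difference of -1.58, against -1.93 with all 8 pools. With 7 pools the HIF-controlled pair gave -1.55 of this and the constitutive 3 gave 0.035, and with 8 pools they gave -1.43 and 0.50. On the same centred scale the mean of the constitutive 3 ranged over 0.092 in the knockout pools and 0.085 in the 3 wild type pools. The mean of Egln1 and Egln3 ranged over 0.43 and 1.17, and Egln3 alone, a single gene, over 0.57 and 1.67.

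**Figure D2:**
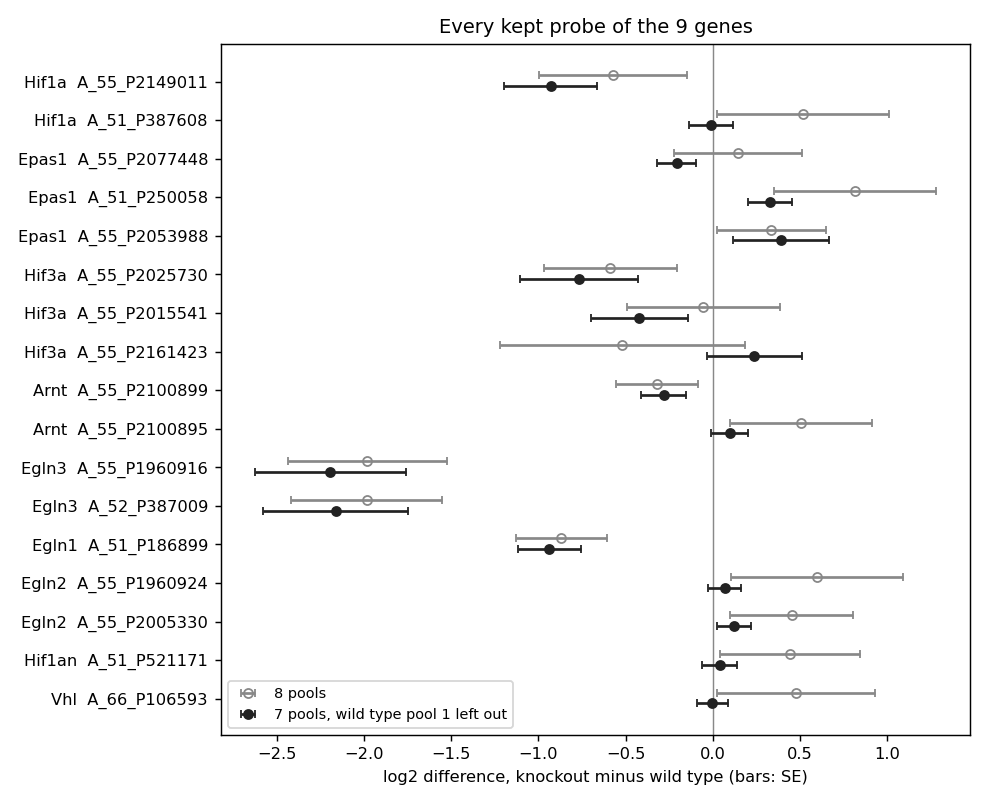
Log2 difference, knockout minus wild type, with its SE for each of the 17 kept probes of the 9 genes, with 8 pools (open) and with 7 (filled). Both Egln3 probes and the Egln1 probe lie well below 0 under both, whereas the probes of Egln2, Hif1an and Vhl move to within 0.13 of 0 when wild type pool 1 is left out.

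Hif1a, the broadly expressed alpha subunit, was measured at chr12:75047269-75047329 (mm9, plus strand). It read 2.40, 2.68, 2.77 and 2.68 in the knockout pools and 0.54, 2.49, 2.69 and 2.74 in the wild type pools. The 3 wild type pools other than pool 1 fell inside the knockout range, and the difference was 0.52 ± 0.49 (SE, 4 against 4 pools) with 8 pools and -0.0081 ± 0.12 with 7. A dimmer probe, named only by an Ensembl description and lying upstream at chr12:75033965-75034024, read differently. Its levels were -3.10, -2.70, -2.88 and -3.44 in the knockout pools and -3.53, -2.01, -2.64 and -1.67 in the wild type pools. On 7 of the 8 arrays it stood well above background. Its difference was -0.57 ± 0.43 with 8 pools and -0.93 ± 0.27 with 7, where all knockout pools lay below the wild type pools. Which Hif1a exon or intron the probe reads was not analysed here.

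Epas1 (HIF-2 alpha), the alpha subunit known from endothelium, was measured by 3 probes. The brightest, at chr17:87232615-87232674 (mm9, plus strand), read 2.70, 3.07, 2.75 and 2.86 in the knockout pools and 0.57, 2.63, 2.40 and 2.54 in the wild type pools. Every knockout pool lay above every wild type pool. The difference was 0.82 ± 0.47 (SE, 4 against 4 pools) with 8 pools and 0.33 ± 0.12 with 7. The 3 probes disagreed. The one at chr17:87230678-87230737 differed by 0.15 ± 0.37 and, with 7 pools, by -0.21 ± 0.11, and the dimmest, at chr17:87230587-87230646, by 0.34 ± 0.31 and 0.39 ± 0.27. Of the 10 endothelial markers, 5 were higher and 5 lower with 7 pools, 8 were higher with 8, and none passed. Their summed level, on the linear scale with the array's 75th percentile as the unit, was 57.4 to 81.0 in the knockout pools, 59.4 to 84.3 in the 3 wild type pools other than pool 1, where it was 21.2. The part of endothelial cell number in the Epas1 values was not tested.

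Hif3a encodes a subunit whose shorter forms can restrain the other alpha subunits, and its own message is known to rise in hypoxia. Its brightest probe, at chr7:17616855-17616914 (mm9, minus strand), read 2.29, 2.47, 2.75 and 1.75 in the knockout pools and 1.26, 3.003, 2.27 and 2.94 in the wild type pools. The groups overlapped, and the difference was -0.054 ± 0.44 (SE, 4 against 4 pools) with 8 pools and -0.42 ± 0.28 with 7. Wild type pools 2 and 7 were high and pool 5 low, the order also seen for Egln3. The probe at chr7:17620811-17620870 differed by -0.59 ± 0.38 and -0.77 ± 0.34. The dimmest, at chr7:17636526-17636585, read -0.19 in wild type pool 1 and between -3.77 and -2.62 in the other 7 pools, so its difference of -0.52 ± 0.70 with 8 pools became 0.24 ± 0.27 with 7.

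Arnt (HIF-1 beta), the common partner of the alpha subunits, was measured at chr3:95301081-95301140 (mm9, plus strand). It read 1.75, 1.48, 1.53 and 1.60 in the knockout pools and -0.15, 1.57, 1.46 and 1.45 in the wild type pools. The difference was 0.51 ± 0.41 (SE, 4 against 4 pools) with 8 pools and 0.097 ± 0.10 with 7, with the groups overlapping. The second probe, at chr3:95299434-95299493, went the other way, by -0.32 ± 0.23 and -0.28 ± 0.13. Another, at chr3:95264558-95264617, was well above background on 1 array only, that of wild type pool 1, and did not pass the filter.

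None of the 9 genes passed an adjusted p of 0.05 (limma, Benjamini-Hochberg over the whole table), with 8 pools or with 7. Over all genes the share that passed was 0% of 24303 with 8 pools and 0% of 23671 with 7. The smallest adjusted p of a member was 0.735 with 8 pools and 0.327 with 7, and the smallest of any gene 0.493 and 0.217. At an unadjusted p under 0.05, limma gave 433 genes with 8 pools, 161 higher and 272 lower, and 2506 with 7, 1476 higher and 1030 lower. With limma's array weights 8 genes passed the adjusted threshold, none of them a member. Among the members 2 were under the unadjusted threshold with 8 pools, Egln3 and Egln1, both lower, and 3 with 7, the same 2 and Epas1, which was higher. The members were chosen on these same differences, so their p-values are given as a description and test nothing.

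All knockout pools lay below all wild type pools for 2 of the 9 genes with 8 pools, where 1.54% of all genes did so, and for the same 2 with 7 pools, where 4.84% did. All knockout pools lay above all wild type pools for 1 gene, Epas1, against 3.95% of all genes with 8 pools and 6.35% with 7. Since these values entered the choice of the 9 genes, nothing is read from these counts. As a position among all genes tested, 0.0845% had a difference as low as or below that of Egln3 with 7 pools and 0.832% as low as or below that of Egln1. With 8 pools these shares were 0.329% and 7.48%. The median difference over the 9 genes was 0.48 with 8 pools and -0.0018 with 7, beside 0.13 and 0.052 over all genes.

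The HIF target panel, 24 measured genes that are well known to be induced by HIF, lay lower in the knockout pools, as the hydroxylase feedback genes did. Its list holds neither Egln1 nor Egln3. With 7 pools, 23 of the 24 were lower and 1, Pfkfb4, higher, with a median difference of -0.96. Under the unadjusted threshold were 20, all lower, beside 2506 of 23671 over all genes, of which 1030 were lower. None passed the adjusted one. With 8 pools, 20 were lower and 4 higher, with a median of -0.70. Under the unadjusted threshold were 8, all lower, beside 433 of 24303 over all genes, of which 272 were lower. Under every other scaling or background correction run the panel's median stayed below 0, between -1.17 and -0.16. The 2 with the smallest p were carbonic anhydrases, which regulate pH: Car9 differed by -2.61 ± 0.40 (SE, 4 against 4 pools) and -2.77 ± 0.36 with 7 pools, and Car12 by -1.996 ± 0.44 and -2.29 ± 0.35. All knockout pools lay below all wild type pools for 7 of the 24 with 8 pools and for 19 with 7, beside 1.54% and 4.84% of all genes. These lists were also drawn up with earlier results of the same arrays known.

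The panel's mean level per pool was set beside the 2 hydroxylases. Centred on its mean over the 7 pools, it was -0.39, -0.47, -0.24 and -0.74 in the knockout pools. In wild type pools 2, 5 and 7 it was 0.78, 0.086 and 0.96. Egln3 on the same centred scale was -0.77, -1.11, -0.63 and -1.20, then 1.80, 0.13 and 1.78, and Egln1 was -0.21, -0.35, -0.39 and -0.64, then 0.57, 0.18 and 0.86. In each of the 3 measures pool 5 was the lowest of these 3 wild type pools and knockout pool 7 the lowest knockout pool. Egln3 and the panel fell over the knockout pools in the same order, 3, 1, 2 and 7, whereas Egln1 fell in the order 1, 2, 3 and 7. Wild type pool 7 lay above pool 2 for the panel and Egln1 and just below it for Egln3. Wild type pool 1 did not follow: the panel mean there was -0.73, inside the knockout range, while Egln3 was 0.53 and Egln1 0.26.

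**Figure D3:**
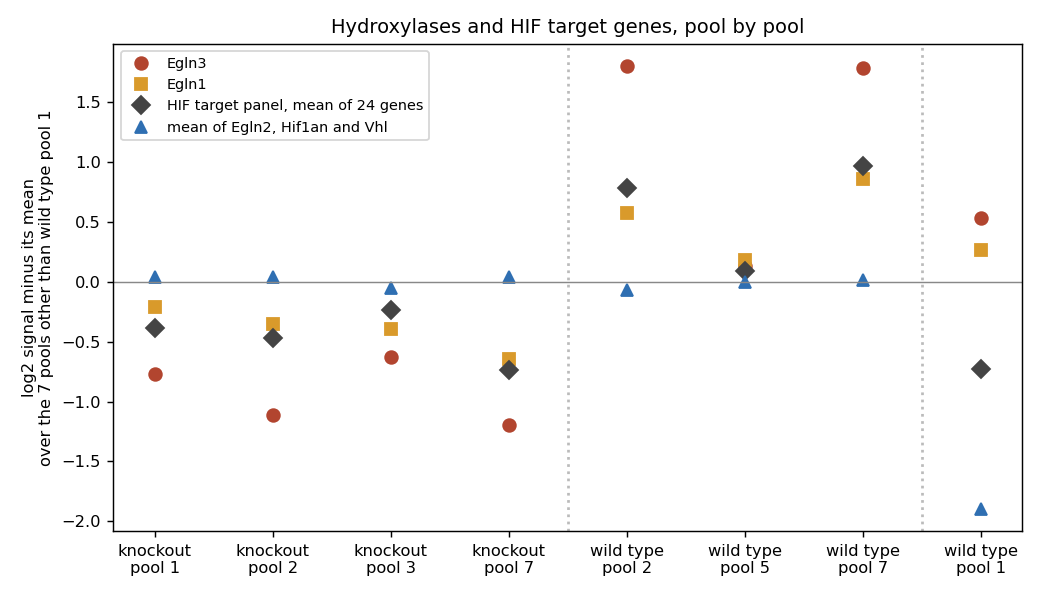
Egln3, Egln1, the mean of 24 HIF target genes and the mean of Egln2, Hif1an and Vhl in each pool (y axis, log2 level minus its own mean over the 7 pools other than wild type pool 1). The first 3 are below 0 in all knockout pools and above it in wild type pools 2, 5 and 7, while the constitutive mean stays within 0.08 of 0 in these 7 pools and reads -1.90 in wild type pool 1.

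Among the members, Egln3 and Egln1 ran closely together. Their Pearson r over the 7 pools was 0.966, and 0.826 after each group's mean was subtracted. For Egln3 and Hif3a these values were 0.754 and 0.770. The r within each genotype alone was not computed. Among the knockout pools, Egln3 fell in the pool order 3, 1, 2 and 7 and Egln1 in the order 1, 2, 3 and 7. With Hif1a, Hif1an and Vhl the r of Egln3 was between -0.24 and 0.03 over the same pools, with Arnt -0.34, with Epas1 -0.65 and with Egln2 -0.77. After the group means were subtracted it was 0.25 with Arnt and 0.22 with Epas1, the opposite sign, and -0.76 with Egln2. These are descriptions over 7 pools that share array scaling and fall in 2 groups, and they carry no p.

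The genes most like Egln3 over the 7 pools, among 16526 compared, were Ddit4 (r = 0.996, and 0.991 with group means subtracted), Ankrd37 (0.994 and 0.969), C3 (0.993 and 0.968), Car12 (0.990 and 0.969) and Ndrg1 (0.990 and 0.980). Egln1 ranked 46 in that order. Those most like Egln1 were Depdc5 (0.992 and 0.958), 1700001L05Rik (0.990 and 0.952), Atp6ap1 (0.988 and 0.949), Tbr1 (0.988 and 0.971) and Shmt2 (0.985 and 0.914), with Egln3 ranked 54. With wild type pool 1 included, the r of Egln3 was 0.904 with Ddit4, 0.993 with Ankrd37, 0.862 with C3, 0.983 with Car12 and 0.990 with Ndrg1. That of Egln1 was 0.244 with Depdc5, 0.848 with 1700001L05Rik, 0.126 with Atp6ap1, 0.876 with Tbr1 and 0.542 with Shmt2.

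Other genes that act on the HIF pathway, such as the remaining parts of the Vhl ligase, the coactivators and their competitors, and proteins that bind or stabilise the alpha subunits, lay around the median of all genes with 7 pools. Of 29 measured, 18 were higher and 11 lower with 7 pools, with a median of 0.036. With 8 pools 25 were higher, with a median of 0.46. Relative to the median of all genes, these medians were -0.016 and 0.33. None passed the adjusted threshold. The 2 with the smallest p were Limd1, a scaffold that brings hydroxylase and Vhl together, at 0.69 ± 0.43 (SE, 4 against 4 pools) and 0.25 ± 0.095 with 7 pools, and Mcm7, a replication helicase subunit reported to bind Hif1a, at 0.73 ± 0.49 and 0.21 ± 0.11. Limd1 was the only one under the unadjusted threshold with 7 pools. Of the coactivators, named for their place in the pathway after their values were seen, Ep300 differed by 0.10 ± 0.14 and Crebbp by -0.037 ± 0.092 with 7 pools.

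The hydroxylases belong to the 2-oxoglutarate-dependent oxygenases, which all use oxygen as a substrate. Of 35 others measured, among them collagen hydroxylases and histone and DNA demethylases, 24 were lower and 11 higher with 7 pools, with a median of -0.14, and 14 were lower with 8 pools, with a median of 0.14. Relative to the median of all genes, the list's median was -0.19 with 7 pools and 0.0084 with 8. None passed the adjusted threshold, and 7 were under the unadjusted one with 7 pools, all lower, beside 2506 of 23671 over all genes. Plod1, a collagen lysyl hydroxylase, differed by -0.52 ± 0.25 (SE, 4 against 4 pools) and -0.62 ± 0.11, and P4ha2, a collagen prolyl hydroxylase that is also on the HIF target panel, by -1.03 ± 0.51 and -1.34 ± 0.47. All knockout pools lay below the 3 wild type pools for 5 of the 35, where 4.84% of all genes did so. Named after their values were seen, they are Plod1, P4ha1, Jmjd6, Plod3 and Kdm4b. Kdm3a, P4ha1 and P4ha2 stand on both this list and the target panel. Egln3 was lower than any of these 35 genes, and Egln1 lower than all but P4ha2, with 7 pools.

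**Figure D4:**
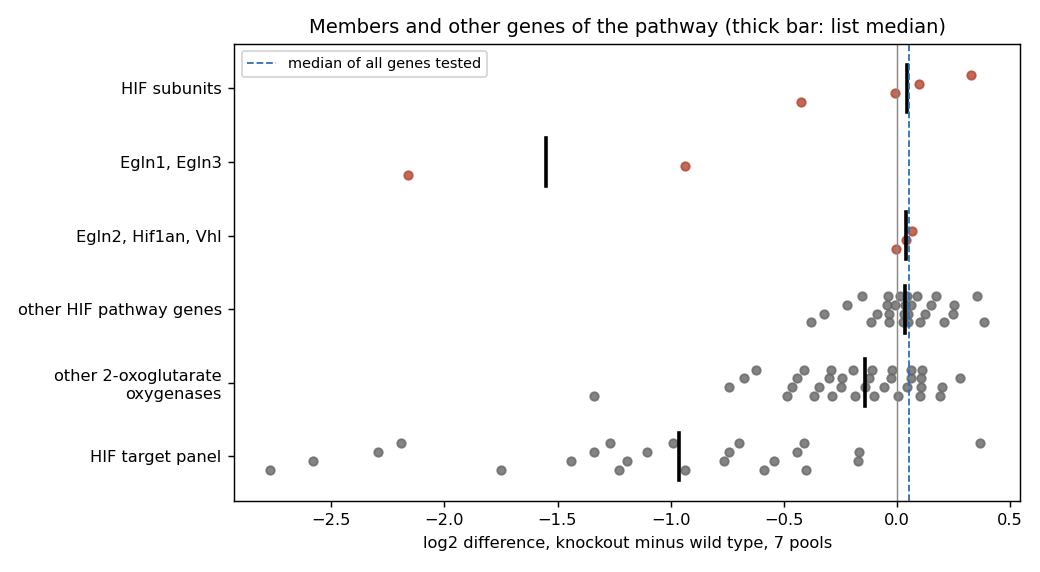
Log2 differences, knockout minus wild type, with 7 pools (x axis), for the members in red and for the other lists in grey, each point 1 gene. Thick bars are list medians and the dashed line is the median of all genes, 0.052. Egln3 lies with the lower genes of the HIF target panel and Egln1 near the panel's median, while the constitutive sensors and other pathway genes lie around 0.

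Markers of other cell types were measured beside these values. Of 8 epithelial markers, 3 were lower and 5 higher with 7 pools, with a median of 0.69, whereas 5 were lower and 3 higher with 8, with a median of -0.13. Their summed level was 36.7 to 56.0 in the knockout pools, 51.0 to 85.4 in the 3 wild type pools other than pool 1, where it was 28.1. The 3 lower ones with 7 pools were the keratins Krt8, Krt18 and Krt19, each well above background on all 8 arrays. These 3 were the brightest of the list in every pool, so the summed level mostly follows them and not the other markers. Named after their values were seen, Epcam was well above it on 6 arrays, and Pax9 and Foxe1 on 5. With another background correction (normexp) the 7-pool median of the list was 0.14. Krt19, a keratin of simple epithelia, had the smallest p of the list and differed by -1.50 ± 0.43 (SE, 4 against 4 pools) and by -1.87 ± 0.24 with 7 pools, and Foxa2, a factor of endoderm, by 0.80 ± 1.13 and 1.29 ± 1.24. All 10 erythroid markers were higher with 8 and with 7 pools, with medians of 1.16 and 0.65. None passed, and their summed level was 1223 to 1995 in the knockout pools and 929 to 1904 in the 3 wild type pools. Hba-a1, an alpha globin, differed by 1.23 ± 0.67 and 0.56 ± 0.35. The part of epithelial or red cell content in the Egln3 and Egln1 values was not tested.

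The marker lists of the other tissues gave mixed signs. The 10 cardiomyocyte markers were all lower, by a median of -0.18, but all higher with 8 pools, by 0.33, where quantile scaling turned 8 of them lower. Actc1 and Tnnt2, both of the sarcomere, differed by -0.073 ± 0.16 and -0.081 ± 0.18 with 7 pools. Of 10 mesenchymal markers 6 were lower and 4 higher with 7 pools, with a median of -0.046, and 9 were higher with 8, with a median of 0.55. Tfap2a and Prrx1 differed by 0.75 ± 0.40 and 0.62 ± 0.39 with 7 pools. Of 6 smooth muscle markers 4 were lower with 7 pools, with a median of -0.088, and 5 were higher with 8, with a median of 0.41. Myocd and Smtn differed by 0.048 ± 0.19 and -0.052 ± 0.17 with 7 pools. Of 6 leukocyte markers 5 were higher with 7 pools, with a median of 0.25, and 5 lower with 8, with a median of -0.25. Named after their values were seen, Cd68 was well above background on 6 arrays and Ptprc on 7. With normexp the 7-pool median of this list was 0.12. Csf1r and Fcer1g differed by 0.12 ± 0.30 and -0.031 ± 0.37 with 7 pools. Of the 10 endothelial markers 5 were higher and 5 lower with 7 pools, with a median of 0.034, and 8 were higher with 8, with a median of 0.36. Among them, Tie1 and Sox18 differed by 0.35 ± 0.13 and 0.35 ± 0.19 with 7 pools. None of these genes passed the adjusted threshold.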

How the data were processed

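Total RNA from 8 pools, 50 ng each, was measured on 1-colour Agilent mouse arrays (1 slide), and each pool's spots were read from its scanner file. The deposited values are processed spot intensities from Agilent Feature Extraction 10.7.3.1, spatially and multiplicatively detrended, per the file headers. Probe positions are mm9, per the file headers. From these, log2 intensity minus each array's 75th percentile over 59305 spots that are not controls was computed, spots of a probe were averaged, and a probe was kept (33434 of 55681) where 3 or more arrays of either group put it well above background. The brightest kept probe stood for a gene. No member's spot was saturated or excluded. Groups were compared with limma 3.58.1 in R 4.3.3 (lmFit, eBayes, Benjamini-Hochberg over all genes, threshold 0.05). The code was run on simulated data with an equal spread for all genes and no array apart. These arrays differ in both, so that run does not show how the fit performs here. The number of arrays limits the precision.

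The members and lists were chosen with earlier results of these data known. Genes named by rule were the 9 members, Aldh1a2, per other list the 2 with the smallest unadjusted p over 8 pools, and for Egln3 and Egln1 the 5 with the highest r over 7 pools. Outside the rule, Pfkfb4, Krt8, Krt18 and the genes so marked in the text were named after their values were seen. Kdm3a was named as a gene that stands on 2 lists. One gene this rule would name is not reported here. Deviations from the group means, between pools of the same number, correlated at -0.15 (pool 1), 0.32 (pool 2) and -0.41 (pool 7). The wild type mean included wild type pool 1, which stood apart, so these values cannot show whether pool numbers pair the pools. Alternatives changed scaling, background correction, probe filter, weights, blocks and single pools. Upstream sequences were read from RefSeq windows (GRCm38.p6). Exon positions of probes and protein sequences were not analysed here.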

Additional observations from a re-analysis of the deposited data

Results flagged for a closer look

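Wild type pool 1 lay far below the other 3 wild type pools for 6 of the 9 genes. The gap to the nearest pool, over the range of the 4 pools, passed Dixon's 95% critical value for Hif1a (0.54 against 2.49 to 2.74), Epas1 (0.57 against 2.40 to 2.63), Arnt (-0.15 against 1.45 to 1.57), Egln2 (2.64 against 4.66 to 4.85), Hif1an (-1.27 against 0.30 to 0.38) and Vhl (0.72 against 2.58 to 2.69). Of 20 groups of 4 pools checked, 6 had such a pool, always this one, where chance flags about 1 in 20. Egln3, Egln1 and Hif3a had none.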

How the results depend on the processing

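No member passed the adjusted threshold under any of the 25 alternatives, of which 4 that combine 7 pools with another setting were chosen after seeing the data. Over all genes, 8 passed with array weights and 22 with 7 pools scaled to the array median, against 0 otherwise. Egln3 was lower in knockout under all settings run, between -2.40 and -1.44 with wild type pool 1 and between -2.37 and -2.002 without it, with a smallest adjusted p of 0.101. Egln1 was lower too, between -1.26 and -0.33 and between -1.14 and -0.80, with a smallest adjusted p of 0.161. The HIF-controlled minus constitutive difference ranged from -2.30 to -1.58 when 1 pool was left out. The signs of Hif1a, Hif3a, Arnt, Egln2, Hif1an and Vhl changed between settings, and Epas1 by its brightest probe stayed above 0. Its probe at chr17:87230678-87230737 did not. That probe was below 0 in 3 of 21 settings with wild type pool 1. Without that pool it was below 0 in all 5, between -0.41 and -0.15. Leaving out wild type pool 1 took the unadjusted count of genes from 433 to 2506, leaving out knockout pool 1, 2 or 7 took it to 209, 204 or 230, and leaving out wild type pool 5 took it to 726. Scaling to the array median moved the median of all genes from 0.13 to 0.67, and scaling over detected probes moved it to -0.26, so that 82.18% and 32.28% of genes were higher in knockout against 57.05%, with 67.46% under quantile scaling, 39.13% with no filter on dim probes, and 26.02% with 7 pools scaled to the array median against 59.28%. With pool number as a replicate block, 0 genes passed, 232 were under an unadjusted p of 0.05, and the HIF-controlled minus constitutive difference was -2.37. Only the numbers 1, 2 and 7 occur in both groups, so knockout pool 3 and wild type pool 5 added nothing to the differences of that fit. It includes wild type pool 1, and it also gave the lowest Egln3 difference, -2.40.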
